A study of Mus musculus with 2 samples.

Results

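The 10 genes described here are Cd74, Lyz2, C1qa, C1qb, C1qc, B2m, H2-D1, H2-K1, H2-Aa and H2-Ab1, which encode proteins of antigen presentation, the complement starter C1q and the lysozyme of macrophages and neutrophils. They were chosen by name, and all 10 were found among the 18179 genes listed in at least 1 of the libraries. Long-read RNA-seq, which aims to read an RNA molecule along most of its length, was applied to the adrenal gland. The tissue came from female B6CASTF1/J mice, first-generation hybrids of C57BL/6J and CAST parents, at an age of 10 days, with no treatment named. The labels give 1 group of 2 biological replicates, so there is no contrast between conditions, and replicate 1 is set against replicate 2 throughout. One label names the same animal number for both replicates and another label names different numbers, so the spread given as SD may not cover animals. Reads of the C57BL/6J and CAST alleles were not separated.

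MHC class I molecules, made of a heavy chain (H2-K1, H2-D1) and the light chain beta-2-microglobulin (B2m), present peptides from inside the cell and are made by nearly all cells. MHC class II molecules are heterodimers of an alpha chain (H2-Aa) and a beta chain (H2-Ab1) in professional antigen-presenting cells, where Cd74, the invariant chain, blocks the peptide groove until the molecule reaches the endosome. C1q is assembled from A, B and C chains made mainly by tissue macrophages, and it starts the classical complement pathway. Lyz2 is the M-type lysozyme, an enzyme that cuts bacterial cell walls and is widely used to mark myeloid cells. On mm10, the class I and class II genes of the list lie in the H2 complex, H2-K1 at chr17:33996017-34000347, H2-Ab1 at chr17:34257689-34269419, H2-Aa at chr17:34282744-34287823 and H2-D1 at chr17:35262730-35267499. B2m lies at chr2:122147686-122153083 and Lyz2 at chr10:117277331-117282321, outside that complex.

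The alternatives that distinguish transcripts of the class I genes lie at the end of the coding part, where exon 7 and the last exon encode the cytoplasmic tail. The first set below runs from exon 7 to the stop codon, on the GRCm38 assembly with the GENCODE M21 annotation, between chr17:33996472-33996654 (minus strand) in H2-K1 and between chr17:35266688-35266870 (plus strand) in H2-D1. Capitals mark the 27 bases (9 codons) that H2-K1-201 holds and H2-K1-205 lacks. H2-D1-202 ends like the shorter H2-K1 form.
H2-K1-201: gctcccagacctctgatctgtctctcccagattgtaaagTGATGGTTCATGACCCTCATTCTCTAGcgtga
H2-K1-205: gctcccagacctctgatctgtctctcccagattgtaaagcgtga
H2-D1-202: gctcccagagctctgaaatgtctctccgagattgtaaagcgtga
The next pair shows places where H2-D1 reads used another splice acceptor, with capitals for the 114 bases of exon 3 that some reads left out and for the 15 bases that others added before exon 6.
H2-D1 exon 2 to exon 3: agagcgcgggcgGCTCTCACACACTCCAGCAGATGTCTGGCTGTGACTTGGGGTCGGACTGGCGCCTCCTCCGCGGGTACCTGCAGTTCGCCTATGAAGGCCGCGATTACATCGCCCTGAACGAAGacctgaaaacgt
H2-D1 exon 5 to exon 6: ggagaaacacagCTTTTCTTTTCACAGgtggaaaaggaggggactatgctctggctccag
C1q chains carry a collagen-like stalk of repeated triplets that open with glycine, encoded by GGN. The first 12 triplets (108 bases) of the longest unbroken run are given for each chain, with the GGN codons in capitals. Each run was chosen by its GGN spacing. The runs start at codon 62 in C1qa, 31 in C1qb and 68 in C1qc, so the stretches need not correspond.
C1qa: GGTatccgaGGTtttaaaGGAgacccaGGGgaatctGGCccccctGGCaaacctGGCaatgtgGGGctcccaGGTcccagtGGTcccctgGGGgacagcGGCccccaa
C1qb: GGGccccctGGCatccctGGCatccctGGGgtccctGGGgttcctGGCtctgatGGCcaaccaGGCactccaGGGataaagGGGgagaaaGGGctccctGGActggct
C1qc: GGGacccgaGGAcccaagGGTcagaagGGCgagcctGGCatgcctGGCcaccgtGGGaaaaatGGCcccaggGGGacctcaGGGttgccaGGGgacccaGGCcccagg
The longest unbroken run held 16 triplets in C1qa, 29 in C1qb and 16 in C1qc. In human C1q the A and C chains are known for an interruption of the repeat where the stalk bends.

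Replicate 1 held 606677 reads and replicate 2 held 788654, of which 593165 and 772154 remained without the ERCC spike-ins and form the totals behind all values in CPM (read counts scaled to the library total). Finding 0 reads of a gene allows levels of up to 5.06 CPM (replicate 1) and 3.89 CPM (replicate 2), the value of 3 reads. Markers of cortex and chromaffin cells were abundant in both libraries, at 14719 and 18359 CPM summed over 5 cortex genes (led by Cyp11a1, Cyp21a1 and Hsd3b1) and at 4884 and 5413 CPM over 5 chromaffin genes (led by Chgb, Chga and Th). The libraries stood apart in markers of neighbouring organs. Summed over Alb, Apoa1, Ttr, Apoa2 and Fgb, liver markers reached 7677 CPM in replicate 1 against 1238 CPM in replicate 2, and all 5 were called higher in replicate 1. Kidney markers (Slc34a1, Miox, Aqp2, Umod, Cdh16) had 0 reads in replicate 1 and 484 reads (627 CPM) in replicate 2, with all 5 called. The part of these tissues in the levels below was not tested. In bulk RNA, fewer cells of a type and less RNA per cell cannot be told apart.

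Together the 10 genes had 580 reads (978 CPM) in replicate 1 and 643 reads (833 CPM) in replicate 2, or 905 ± 103 CPM (SD, n = 2). Between the libraries, a gene was called when a two-sided exact binomial test of its reads gave an adjusted p (Benjamini-Hochberg over 10567 genes with 10 or more reads) below 0.05 and the ratio was at least 2-fold. Of all tested genes 410 (3.88%) were called, and of the 10 genes 0 were called. Cd74 was the 1 gene of the 10 with an unadjusted p below 0.05 in this exact test, beside 1822 of all 10567 tested genes. edgeR's negative binomial exact test also called 0 of the 10, beside 124 of all 10567 genes. It had 0 of 10 at an unadjusted p below 0.05, beside 434 of all 10567. By log2 of replicate 1 over replicate 2, 8 genes were above 0 and 2 were below, with a median of 0.25 beside 0.04 over all tested genes. These tests compare the reads of 2 libraries and not conditions.

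**Figure D1:**
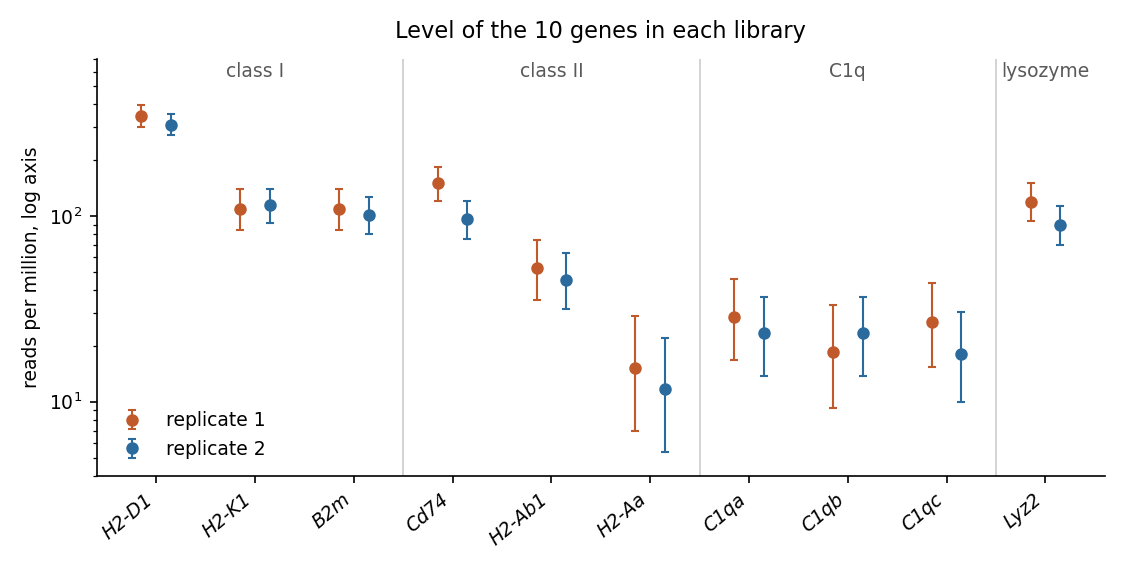
Level of each gene in CPM (log axis) in replicate 1 (left point of each pair) and replicate 2 (right point), with exact 95% intervals for counting error. H2-D1 stood above the other 9 genes in both libraries, at 347 and 311 CPM, and H2-Aa stood lowest, at 15.2 and 11.7 CPM.

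H2-D1, a classical class I heavy chain, had the highest level of the 10. It had 206 reads (347 CPM) in replicate 1 and 240 reads (311 CPM) in replicate 2, a mean of 329 ± 25.8 CPM (SD, n = 2), and ranked 453rd of all listed genes. H2-K1, the other classical heavy chain of this list, had 65 reads (110 CPM) in replicate 1 and 88 reads (114 CPM) in replicate 2, 112 ± 3.10 CPM. Both heavy chains differed little between the libraries, with ratios of replicate 1 over replicate 2 of 1.12 (95% interval 0.923 to 1.35) for H2-D1 and 0.962 (0.687 to 1.34) for H2-K1. B2m had 65 reads (110 CPM) in replicate 1 and 78 reads (101 CPM) in replicate 2, 105 ± 6.06 CPM, with a ratio of 1.08 (0.768 to 1.53).

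H2-D1 and H2-K1 share much of their sequence, which bears on how reads are assigned. Over exons 2, 3 and 4, which encode the extracellular domains, the annotated sequences were identical at 91.1, 88.0 and 96.0% of bases. Exon 6 (33 bases) was identical throughout and exon 7 (39 bases) at 89.7%. The annotated sequence is that of C57BL/6J, so reads of CAST alleles and of other near-identical class I genes may be listed under either gene, and the 2 levels are uncertain to that extent.

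In both libraries the reads of H2-D1 outnumbered those of H2-K1, by 3.17 times (2.39 to 4.26) in replicate 1 and 2.73 times (2.13 to 3.52) in replicate 2. Divided by the length of the most read annotated transcript, the level per kilobase of H2-D1 was 2.44 and 2.10 times that of H2-K1. Reads of the 2 heavy chains together were 4.17 times those of B2m in replicate 1 (3.17 to 5.55) and 4.21 times in replicate 2 (3.28 to 5.45). Per kilobase, where the short B2m transcript of 860 bases weighs more, the heavy chains together were at 1.83 and 1.86 times B2m. The ratio of heavy to light chain was thus close in the 2 libraries, with a difference smaller than its counting interval.

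Among the class II genes, Cd74 was far above the chains it accompanies. Cd74 had 89 reads (150 CPM) in replicate 1 and 74 reads (95.8 CPM) in replicate 2, 123 ± 38.3 CPM. It had the largest ratio of the 10 genes, 1.57 (1.14 to 2.16), with an unadjusted p of 0.00439 and an adjusted p of 0.0567 in the exact binomial test, and was not called. H2-Ab1, the beta chain of I-A, had 31 reads (52.3 CPM) in replicate 1 and 35 reads (45.3 CPM) in replicate 2, 48.8 ± 4.90 CPM. H2-Aa, the alpha chain, had 9 reads in each library, 15.2 CPM in replicate 1 and 11.7 CPM in replicate 2, 13.4 ± 2.49 CPM. Its ratio of 1.30 had an interval from 0.458 to 3.70, so a 2-fold difference between the libraries was not detectable for this chain.

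The beta chain was above the alpha chain in both libraries, although the protein holds both in equal number. Reads of H2-Ab1 were 3.44 times those of H2-Aa in replicate 1 (1.60 to 8.23) and 3.89 times in replicate 2 (1.83 to 9.20). Their transcripts are similar in length, and per kilobase the ratios were 3.21 and 3.62. Reads of Cd74 were 9.89 times those of H2-Aa in replicate 1 (4.98 to 22.3) and 8.22 times in replicate 2 (4.11 to 18.7), and 2.87 times (1.89 to 4.47) and 2.11 times (1.40 to 3.26) those of H2-Ab1.

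The 3 C1q chains were found at like levels in both libraries. Their genes lie side by side on the minus strand of chromosome 4 within 18.7 kb (mm10, chr4:136880129-136898803), each with 3 exons. C1qa had 17 reads (28.7 CPM) in replicate 1 and 18 reads (23.3 CPM) in replicate 2, 26.0 ± 3.78 CPM. C1qb had 11 reads (18.5 CPM) in replicate 1 and 18 reads (23.3 CPM) in replicate 2, 20.9 ± 3.37 CPM. C1qc had 16 reads (27.0 CPM) in replicate 1 and 14 reads (18.1 CPM) in replicate 2, 22.6 ± 6.25 CPM. C1qb was the lowest chain in replicate 1 and C1qc in replicate 2, so the order of the chains was not the same in the libraries. All 6 ratios between chains, from 0.688 for C1qb over C1qc in replicate 1 to 1.55 for C1qa over C1qb in replicate 1, had 95% intervals that include 1. The widest of these reached from 0.683 to 3.65, so unequal chain levels within that range were not detectable at this depth.

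Lyz2 had 71 reads (120 CPM) in replicate 1 and 69 reads (89.4 CPM) in replicate 2, 105 ± 21.5 CPM, with a ratio of 1.34 (0.948 to 1.89). Lyz1, the near-identical P-type lysozyme of Paneth cells, was not listed in either library, so all reads of the pair were listed under Lyz2. Whether any of them came from Lyz1 was not examined.

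In order of mean CPM the 10 genes ran from H2-D1 through Cd74, H2-K1, B2m, Lyz2, H2-Ab1, C1qa, C1qc and C1qb to H2-Aa. Cd74, H2-K1, B2m and Lyz2 lay between 105 and 123 CPM, and neighbours within this group differed by less than their summed SDs. The same held for C1qa, C1qc and C1qb. H2-D1 and Cd74, and Lyz2 and H2-Ab1, had intervals that did not overlap in either library. Per kilobase of the most read annotated transcript, H2-D1 was still the highest (157 CPM per kb) and H2-Aa the lowest (11.9 CPM per kb). B2m moved to the second place at 122 CPM per kb, ahead of Cd74 (100 CPM per kb), Lyz2 (79.4 CPM per kb) and H2-K1 (69.0 CPM per kb).

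**Figure D2:**
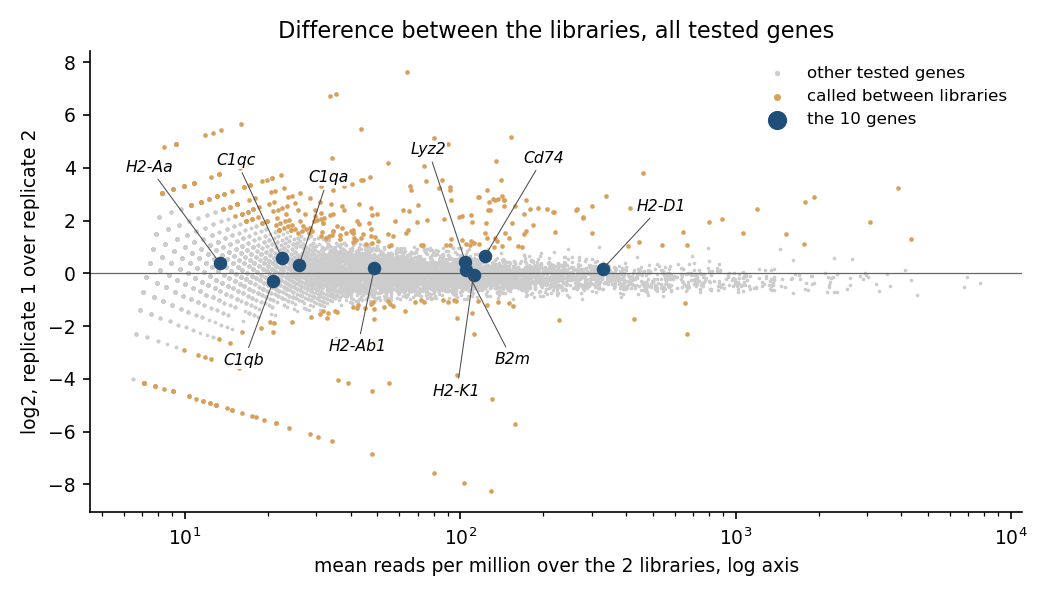
Mean CPM (log axis) against log2 of replicate 1 over replicate 2 for the 10567 tested genes, with called genes in orange and the 10 genes in blue. The 10 genes lie between -0.31 (C1qb) and 0.65 (Cd74), inside the band of genes that were not called.

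Transcript models were next compared with the annotation. The deposited tables class a model as annotated, as an incomplete splice match (a run of annotated introns without the rest), as an unannotated combination of annotated splice sites, as one with an unannotated splice site, or as genomic (overlapping the gene without matching its splicing). Annotated models held 460 of 580 reads of the 10 genes in replicate 1 (79.3%) and 534 of 643 in replicate 2 (83.0%), beside 71.0 and 75.6% over the reads of all annotated genes. Single-exon models held 5.69 and 4.82% of the reads of the 10 genes, beside 14.5 and 12.0% over the pooled reads of all annotated genes. Per gene, the median share over the 2063 genes tested for it below was 4.55% in replicate 1 and 2.84% in replicate 2. The pooled shares of the 10 genes lay above these medians, so a low share of single-exon reads was not shown for them. The 10 genes had 61 unannotated models in replicate 1 and 53 in replicate 2, of which 39 in each library rested on 1 read. H2-D1 and H2-K1 together held 40 of the unannotated models in each library.

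**Figure D3:**
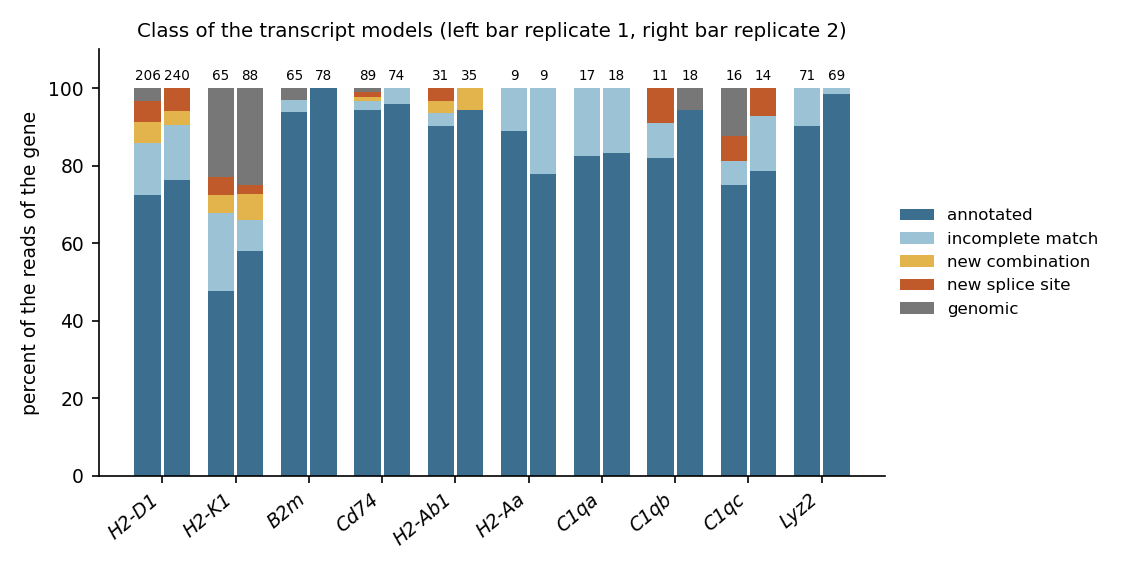
Percent of each gene's reads by class of transcript model, with replicate 1 in the left and replicate 2 in the right bar and the number of reads above. Annotated models held 93.8 and 100% of B2m reads but 47.7 and 58.0% of H2-K1 reads, and genomic models held 23.1 and 25.0% of H2-K1 reads.

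Genes with a single main transcript were B2m, Lyz2, H2-Ab1, H2-Aa and the C1q chains. B2m-201 held 61 of 65 B2m reads in replicate 1 (93.8%) and 78 of 78 in replicate 2 (100%). For Lyz2, the main transcript Lyz2-201 held 64 of 71 reads in replicate 1 (90.1%) and 68 of 69 in replicate 2 (98.6%). The share of the main transcript was tested between libraries by Fisher's exact test over the 2146 genes that reached 50 reads in both libraries. A call needed an adjusted p below 0.05 together with a difference of 10 percentage points, and 37 genes (1.72%) were called. Of the 10 genes 5 had enough reads, and 0 were called; the lowest exact p was 0.0405 (adjusted 0.331), for B2m. The same test of single-exon reads called 6 of 2063 genes (0.291%) and 0 of the same 5 genes, with the lowest exact p at 0.198 for H2-D1.

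Most reads reached the 5′ end of the gene. The annotated first intron was spliced out in 95.5 and 95.9% of Cd74 reads, 93.8 and 100% of B2m reads, 96.8 and 100% of H2-Ab1 reads and 86.4 and 92.5% of H2-D1 reads in replicate 1 and replicate 2. Among the C1q chains this share lay between 75.0% (C1qc in replicate 1) and 94.4% (C1qb in replicate 2). H2-K1 was the lowest of the 10, with 33 of 65 reads in replicate 1 (50.8%, 38.1 to 63.4) and 55 of 88 in replicate 2 (62.5%, 51.5 to 72.6). These totals include 15 and 22 reads of a single-exon model described below, which cannot show the first intron.

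Cd74 lies outside the H2 complex, at mm10 chr18:60803848-60812652. Its reads fell into the 2 known forms of the invariant chain. The longer form holds an additional exon of 192 bases (64 codons, mm10 chr18:60811294-60811485) that encodes a thyroglobulin type 1 domain, known to bind and inhibit cysteine proteases such as cathepsin L. Its annotated transcript Cd74-202 encodes 279 codons, and Cd74-201 without the exon encodes 215. The exon was included in 22 of 87 informative reads in replicate 1 (25.3%, 16.6 to 35.7) and in 16 of 72 in replicate 2 (22.2%, 13.3 to 33.6). The exon was thus in the minority of Cd74 molecules in either library, and the intervals overlapped over most of their width. No other internal exon of Cd74 was skipped in any read, and no read of the gene retained an intron of Cd74-201. In replicate 1, 1 read with the additional exon retained the 373-base intron that follows it in Cd74-202, and is not among the informative reads.

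**Figure D4:**
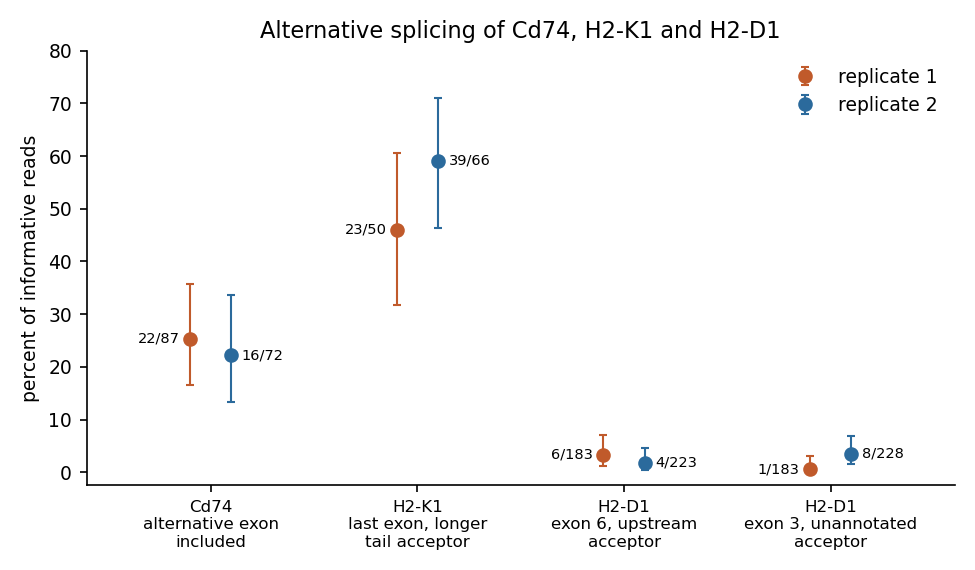
Percent of informative reads with the named form in replicate 1 (left point) and replicate 2 (right point), with exact 95% intervals and read counts. The Cd74 exon was included in 25.3 and 22.2% of reads, the longer H2-K1 tail was found in 46.0 and 59.1%, and both H2-D1 acceptors were used in under 4% of reads.

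H2-K1 reads were divided between the cytoplasmic tails printed above. The acceptor of H2-K1-201, which adds the 9 codons, was used in 23 of 50 informative reads in replicate 1 (46.0%, 31.8 to 60.7) and in 39 of 66 in replicate 2 (59.1%, 46.3 to 71.0). The other reads used the acceptor of H2-K1-205, so that coding lengths of 369 and 360 codons were about equally common. The bases between the acceptors lie at chr17:33996477-33996503. As whole annotated models, H2-K1-201 had 14 reads and H2-K1-205 had 17 in replicate 1, while in replicate 2 they had 28 and 20. Exon 6, which encodes part of the cytoplasmic tail, was skipped in 3 of 50 H2-K1 reads in replicate 1 and in 4 of 63 in replicate 2.

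H2-K1 also had a single-exon model of 90 bases at the very end of the gene (chr17:33996017-33996106), classed as genomic. It held 15 of 65 reads in replicate 1 (23.1%, 13.5 to 35.2) and 22 of 88 in replicate 2 (25.0%, 16.4 to 35.4). The listed length of such a model need not be that of its reads, as 1 genomic C1qc model was listed at 1 base. No other member had a single-exon share above 15%. Without single-exon models the mean level of H2-K1 was 84.9 CPM and with annotated models only it was 59.2 CPM, against 112 CPM over all models.

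In H2-D1, the best-read gene of the 10, 24 different introns were seen, of which 16 are not annotated and 5 of those occurred in both libraries. In H2-K1, with fewer reads, 17 introns were seen, of which 4 are not annotated, and the share of reads on annotated models was lower than in H2-D1 in both libraries. Annotated introns nevertheless made up 98.5 and 98.6% of all H2-D1 splice junctions read. Reads of H2-D1-202, which encodes 362 codons, were 148 of 206 in replicate 1 (71.8%) and 183 of 240 in replicate 2 (76.3%).

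The acceptor 15 bases (5 codons) upstream of exon 6, annotated in the fragment H2-D1-201, was used in 6 of 183 reads in replicate 1 (3.28%, 1.21 to 7.00) and in 4 of 223 in replicate 2 (1.79%, 0.491 to 4.53). An unannotated acceptor within exon 3 left out 114 bases (38 codons, chr17:35263839-35263952) of the sequence that encodes the alpha-2 domain of the peptide groove. Only 1 of 183 reads used it in replicate 1 (0.546%, 0.0138 to 3.01), and 8 of 228 did in replicate 2 (3.51%, 1.53 to 6.80), so its mean rests mostly on replicate 2. Another unannotated intron (chr17:35264056-35265783) started 59 bases before the annotated end of exon 3 and was found in 5 reads of replicate 1 and 4 reads of replicate 2. A further unannotated intron, chr17:35266351-35266695, started 47 bases past the annotated end of exon 5. It left exon 6 out and ended 8 bases inside exon 7, in 4 and 3 reads. Its neighbour chr17:35266349-35266687 started 45 bases past that end and had 2 reads in replicate 1 and 1 read in replicate 2. In H2-K1 the unannotated intron with the most reads, chr17:33996655-33996993, also passed over exon 6, in 1 and 3 reads. It started 44 bases past the annotated end of exon 5.

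H2-D1 exon 6 is identical in sequence to that of H2-K1. An intron spanned H2-D1 exon 6 in 8 of 180 reads in replicate 1 and in 8 of 225 in replicate 2. For exon 7 this was seen in 2 and 3 reads. All of the introns over exon 6 are unannotated, and none joined the annotated end of exon 5 to the annotated start of exon 7. Retained introns were found mainly at the 3′ end of H2-D1. Intron 7 (139 bases) was retained in 27 of 201 reads in replicate 1 (13.4%, 9.04 to 18.9) and in 24 of 233 in replicate 2 (10.3%, 6.71 to 14.9). The last intron of H2-K1, counted over both acceptors, was retained in 0 of 50 reads in replicate 1 and 0 of 66 in replicate 2, which allows shares of up to 7.11 and 5.44% (upper end of the exact 95% interval). Introns 5 and 6 of H2-D1 were retained in 12 of 189 and 15 of 193 reads in replicate 1 (6.35 and 7.77%), and in 2.23 and 2.20% in replicate 2. In replicate 1 the reads counted as retaining introns 5, 6 and 7 include 5 reads of 1 single-exon genomic model (chr17:35266303-35267499). The listed length of that model need not be that of its reads.

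C1qa and C1qc had 3 and 4 reads outside the annotated transcript in replicate 1, and 3 each in replicate 2. At 11 to 18 reads in a library, rarer forms of the C1q genes were not detectable. An unannotated intron was found in 1 C1qb read of replicate 1, another (chr4:136892564-136892793) in 1 C1qc read of each library, and 0 in C1qa. In H2-Aa, B2m and Lyz2 every splice junction read was annotated. Antisense models over these loci, which the tables list as genes of their own and which are not part of the levels above, had 4 reads in each library at B2m, 2 and 5 reads at H2-D1 and 5 and 4 reads at H2-K1, and 0 at the other 7 genes.

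Of 14 other genes of the class I pathway, 13 had reads in both libraries. All 13 were tested and 0 were called, with 743 reads (1253 CPM) in replicate 1 and 1039 reads (1346 CPM) in replicate 2 and a median log2 of -0.10 (0.04 over all tested genes). Psme2, a subunit of the proteasome activator PA28, had 138 reads (233 CPM) in replicate 1 and 226 reads (293 CPM) in replicate 2. Pdia3, a thiol oxidoreductase of the peptide-loading complex, had 116 reads (196 CPM) and 187 reads (242 CPM). Tapbp, or tapasin, which holds the heavy chain at the peptide transporter, had 130 reads (219 CPM) in replicate 1 and 145 reads (188 CPM) in replicate 2. Nlrc5, the transactivator of class I genes, had 0 reads in both libraries.

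Among 12 other class I and class I-like genes, 7 were tested and 1 was called. H2-Q10, a secreted class I molecule made in liver, had 48 reads (80.9 CPM) in replicate 1 and 5 reads (6.48 CPM) in replicate 2, a ratio of 12.5 (5.0 to 40.2, adjusted p = 6.48e-11 in the exact binomial test). The liver markers given above moved in the same direction; their part in this difference was not tested. Fcgrt, the neonatal Fc receptor chain that pairs with B2m, had 126 reads (212 CPM) and 175 reads (227 CPM). Cd1d1, which presents lipids to natural killer T cells, had 52 reads (87.7 CPM) and 94 reads (122 CPM). H2-T23, the nonclassical Qa-1 molecule, had 38 reads in each library (64.1 CPM in replicate 1 and 49.2 CPM in replicate 2).

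In the class II pathway, 7 of 14 genes were tested and 0 were called, with 162 reads (273 CPM) in replicate 1 and 261 reads (338 CPM) in replicate 2. The best-read gene was Lgmn, the asparaginyl endopeptidase legumain, with 80 reads (135 CPM) in replicate 1 and 161 reads (209 CPM) in replicate 2. Its adjusted p was 0.0236 in the exact binomial test, but its ratio of 0.647 (0.488 to 0.851) was short of the 2-fold minimum. Rfxap, a subunit of the RFX factor that binds class II promoters, had 21 and 24 reads, and Ifi30, a lysosomal thiol reductase, had 14 and 24. H2-Eb1, the beta chain of I-E, had 8 and 13 reads, and H2-DMa, a chain of the peptide exchanger H2-DM, had 8 in each library. Ciita, the master regulator of class II genes, had 1 read in replicate 1 and 0 in replicate 2.

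Of 21 complement genes outside C1q, 16 were tested, of which 5 were called, all higher in replicate 1, and 11 were not (3.88% of all tested genes were called). C3, the central component, had 167 reads (282 CPM) in replicate 1 and 46 reads (59.6 CPM) in replicate 2, a ratio of 4.73 (3.39 to 6.70). Cfb, factor B of the alternative pathway, had 107 reads (180 CPM) and 30 reads (38.9 CPM), a ratio of 4.64 (3.07 to 7.21). Cfi (26 and 5 reads), Mbl2 (25 and 4 reads) and Masp2 (16 and 0 reads, at least 6.94-fold higher with 3 reads in replicate 2) were the other 3. The same direction was seen in the 5 liver markers, 4554 reads in replicate 1 against 956 in replicate 2, and their part was not tested. Cfd, or adipsin, the factor D protease made by fat cells, had 180 reads (303 CPM) in replicate 1 and 313 reads (405 CPM) in replicate 2, and Clu, or clusterin, had 83 and 80 reads. Neither was called. C1ra and C1s1, the proteases that associate with C1q, had 35 and 35 reads and 30 and 18 reads. The difference between C1q and the other complement genes was not itself tested.

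**Figure D5:**
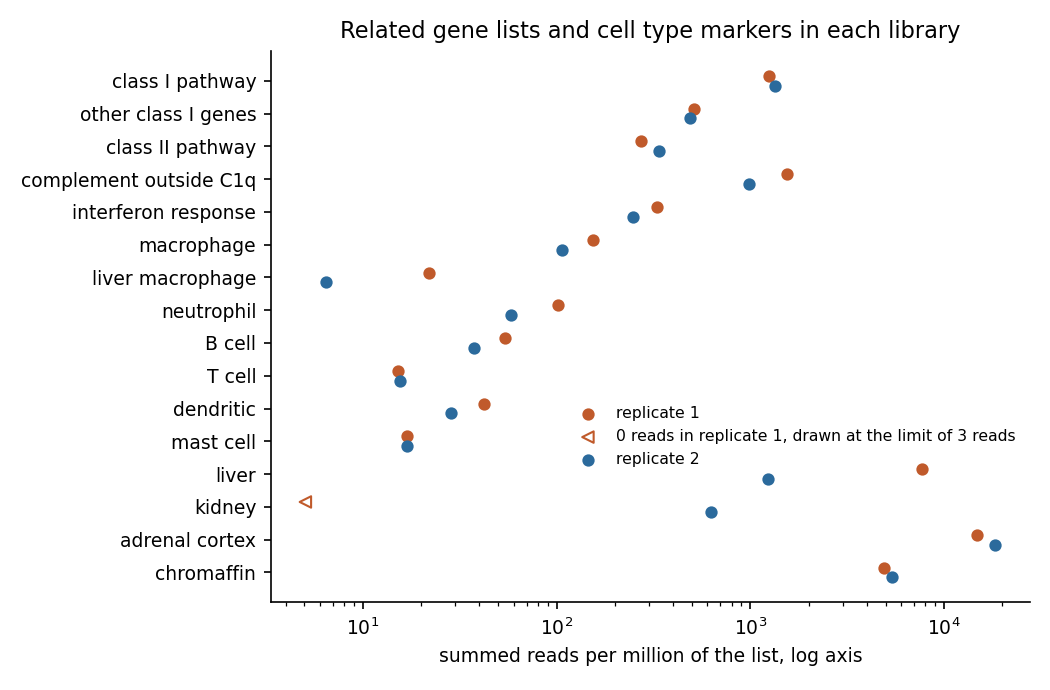
Summed CPM (log axis) of related gene lists and cell type markers, with replicate 1 above replicate 2 in each row. Liver markers were at 7677 and 1238 CPM, kidney markers at 0 reads and 627 CPM, and macrophage markers at 155 and 106 CPM.

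Genes of the interferon response, which can raise class I genes, had 195 reads (329 CPM) in replicate 1 and 191 reads (247 CPM) in replicate 2, and 0 of 9 tested genes were called. Ifitm3, a membrane protein that blocks virus entry, had 66 and 61 reads, and Irf8, a factor of myeloid and B cells, had 26 and 13.

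Macrophage markers were present at low counts. Of 20 genes 19 were listed and 5 tested, with 0 called, and their sum was 92 reads (155 CPM) in replicate 1 and 82 reads (106 CPM) in replicate 2. Csf1r, the receptor for the macrophage growth factor, had 14 reads in each library, Pf4 had 13 and 17, and the lysosomal protein gene Laptm5 had 12 and 6. The scavenger receptor Cd163 had 6 reads in each library, while Adgre1 (F4/80) had 5 and 2 and Ms4a7 had 0 in both. Cd68 had 7 reads in replicate 1 and 1 in replicate 2, and Mrc1 had 9 and 0. Other markers went the other way, with Tyrobp at 4 and 9 and Fcer1g at 3 and 6. Cd14 had 0 and 6 reads and Folr2 had 1 and 4. The C1q chains had 11 to 18 reads in a library, and Cd74 and Lyz2 had more reads than any of these markers in both libraries. Markers of liver macrophages (Clec4f, Vsig4, Marco) summed to 13 reads in replicate 1 and 5 in replicate 2, with Clec4f at 8 and 1.

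Reads of marker genes of other immune cell types were also found, at low counts. Neutrophil genes, of which Lyz2 is a known companion, had 60 reads (101 CPM) in replicate 1 and 45 reads (58.3 CPM) in replicate 2, led by S100a8 with 14 and 13 reads and S100a9 with 12 and 10, and with Camp and Ltf at 11 and 6 each. B cell genes, whose cells express class II and Cd74, had 32 reads (53.9 CPM) and 29 reads (37.6 CPM), with Ighm at 13 and 7, Cd79a at 9 and 6 and Igkc at 0 in both. T cell genes had 9 and 12 reads, led by Cd3g (2 and 4), Cd4 (1 and 4) and Cd3d (3 and 0). Mast cell genes had 10 and 13, led by Tpsb2 (5 and 7), Cma1 (3 and 3) and Cpa3 (0 and 3). Of the dendritic cell markers, Flt3, Clec9a, Itgax and Siglech had 0 reads in both libraries, and Zbtb46, which endothelial cells also express, had 24 and 20, while Cd209a had 1 and 1 and Xcr1 had 0 and 1. Macrophage, neutrophil and B cell sums were each higher in CPM in replicate 1, as was Cd74; their part in the level of Cd74 was not tested.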

How the data were processed

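Reads per transcript model were taken as the authors deposited them: whole-number counts with no normalization, 1 table per library, listing models with at least 1 read. Per the labels and deposit notes, mm10 served as the assembly and GENCODE M21 as the annotation, and TALON is the source that the deposited annotation files name. For platform, aligner and versions nothing is stated in the sources used here. Depth was 606677 and 788654 reads.

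Counts were summed per gene. ERCC reads (2.23 and 2.09%) were left out of totals and genes, and SIRV spike-ins were not analysed here. CPM, SD over the 2 libraries, exact Clopper-Pearson 95% intervals and the limit of 3 reads were computed; intervals and limits cover counting error only. Introns were read from the coordinates of the deposited models, whose outer ends need not be those of every read. Nothing in the sources says whether counting used strand, beyond the separate listing of antisense models.

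Ratios between libraries are replicate 1 over replicate 2 (for log2, with a pseudocount of 0.5 reads). Gene tests were two-sided exact binomial tests, share tests two-sided Fisher's exact tests (Benjamini-Hochberg). With 1 group of 2 libraries edgeR's quasi-likelihood test has no residual degrees of freedom; edgeR 4.0.16 (R 4.3.3) gave the alternative, with the common dispersion of the 2 libraries. SciPy 1.17.1 and pandas 2.3.3 were used, and both tests were checked on simulated counts. Those counts held counting error only, so the check could not show excess calls from other variation between libraries. Alternatives were the ERCC total, TMM scaling, model classes, read minimums and thresholds.

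Sequences are from GENCODE M21 transcripts on GRCm38. No genome sequence was used, so splice motifs were not examined. Named are the 10 genes, and from 16 related lists genes with 5 or more reads in each library, the 3 highest and any called. Genes named at or near 0 reads, and Cd68, Mrc1, Adgre1, Tyrobp, Fcer1g, Cd14, Folr2 and Clec4f, were chosen after their values were seen. Of the genes this rule would name, 2 are not reported here. Unannotated introns are named from 3 reads summed; the C1qb and C1qc ones are exceptions. Members and lists were chosen with earlier results of these data known.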

Additional observations from a re-analysis of the deposited data

How the results depend on the processing

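No member was called between the libraries under any of the alternatives for the gene test (TMM, annotated models only, spliced models only, no minimum, 20 reads, no fold minimum, edgeR), except that H2-Aa was not tested with a minimum of 20 reads, and no member changed the sign of its log2 ratio; the adjusted p of Cd74 ranged from 0.04997 (20 reads summed, but under 2-fold) to 1.00 (edgeR). The number of genes called over the whole table was 410, and 273 with annotated models only, 782 with no fold minimum and 124 with edgeR. With annotated models only, the median log2 over all tested genes was -0.10, beside 0.04. Main-transcript shares called 37 of 2146 genes, 20 of 4818 with a minimum of 20 reads and 74 of 2146 with no minimum difference. Single-exon shares called 6 of 2063 genes, or 17 of 2063 with no minimum difference. Counting annotated models only, the 10 genes summed to 734 CPM, H2-D1 was at 244, H2-K1 at 59.2 and C1qa at 21.5 CPM, since reads of unannotated models then no longer count. Read ratios with annotated models only were 4.11 (H2-Ab1 over H2-Aa), 4.20 (H2-D1 over H2-K1), 2.98 (H2-D1 plus H2-K1 over B2m) and 10.3 (Cd74 over H2-Aa). With spliced models only they were 3.79 for H2-D1 over H2-K1 and 3.92 for H2-D1 plus H2-K1 over B2m. Per kilobase, 6 of 10 genes took another rank. The ratio and splicing alternatives were chosen after seeing the data. Splicing shares of Cd74 and H2-K1 with annotated models only were 23.8 and 53.0%, near the 23.8 and 52.5% over all models. The unannotated H2-D1 acceptor in exon 3 was at 0.546% without replicate 2 and at 3.51% without replicate 1.

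No paired analysis was possible because there is 1 group. Depth limits the C1q chains and H2-Aa most, with 9 to 18 reads in each library. The labels do not settle whether the 2 libraries come from different animals, so their spread may not cover animals.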

Other observations

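Promoter windows of 250 bases before the RefSeq start (GRCm38.p6) were searched for 7 of the 10 genes. Chromosome 18, which holds Cd74, was left out of the search, and no window was matched for C1qa and H2-Ab1. CCAAT, searched on both strands, was found in 4 of these 7 (B2m, H2-K1, H2-D1 and H2-Aa), beside 33.8% of all 32851 windows. A kappa-B-like motif was found in 6 of 7, beside 45.8% of all windows, and TATAAA in 2 of 7 (B2m and H2-D1), beside 12.4%. GAGGAA was found in 2 of 7 (C1qb and C1qc), beside 23.3%, an interferon response element-like motif in 1 of 7 (B2m), beside 2.98%, and TTCNNNGAA in 0 of 7, beside 7.02%. The H2-D1 window lies inside exon 1 of H2-D1-202, and the windows of C1qc and Lyz2 and 1 of 2 windows of H2-K1 overlap the annotated first exon, so not all of these bases lie outside the transcripts. Such matches are a description of letters in these windows and no evidence of binding.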
